A study of Homo sapiens with 7 samples.

Results

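The 9 genes described here encode the core machinery of G1: the D-type cyclins CCND1, CCND2 and CCND3, the E-type cyclins CCNE1 and CCNE2, the kinases CDK4 and CDK6, and the kinase inhibitors CDKN1A (p21) and CDKN1B (p27). They are 9 of 20163 protein-coding genes. A loop was counted for a gene when one of its anchors overlapped a 500 bp window centred on any annotated start site of that gene, and 270 of 354783 loops in 3 lists met this rule: 74 of 163530 for Ishikawa, 54 of 42027 for T-47D and 142 of 149226 for LNCaP. The lists came from H3K27ac HiChIP, which recovers pairs of DNA fragments held together in chromatin that carries acetylated histone H3, a mark of active promoters and enhancers. Ishikawa is an endometrial adenocarcinoma line, T-47D a breast ductal carcinoma line and LNCaP a prostate carcinoma line, each derived from a single patient. The Ishikawa list pooled 4 samples, 2 given DMSO as vehicle and 2 given 10 nM estradiol, all for 1 h. The T-47D list held 1 sample and the LNCaP list pooled 2, and no treatment is labelled for these. Since each line gave a single pooled list, no value below carries a replicate error, no difference was tested, and the effect of estradiol could not be read. DpnII was used in Ishikawa and MboI in the other lines, and sonication, read length and sequencing depth were split in the same way. Line and protocol therefore cannot be told apart in comparisons with Ishikawa. T-47D and LNCaP shared these settings, while their lists held 1 and 2 samples.

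In G1, cyclin D binds CDK4 or CDK6, and the complex begins to phosphorylate the retinoblastoma protein, which releases E2F factors. E2F then drives genes of DNA replication, cyclin E among them, and cyclin E with CDK2 completes the step into S phase. p21 and p27 bind these complexes and hold CDK2 inactive, p21 being best known as a p53 target and p27 as a brake lifted by growth signals. Estrogen is known to raise cyclin D1 in breast cancer cells, and androgen-dependent prostate cells also pass G1 through the D cyclins.

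The promoter sequences of the genes with the highest values in T-47D and LNCaP, and of CDKN1A, are shown because loops of those 3 genes are compared across lists. Each runs 5′ to 3′ on the strand of the gene, from 250 bases before to 50 after the main start site (GRCh37), in lower case, with matches to an E2F motif (TTTGGCGC) and the Sp1 motif (GGGCGG), on either strand, in capitals.
CCND1, chr11:69455674-69455973, plus strand: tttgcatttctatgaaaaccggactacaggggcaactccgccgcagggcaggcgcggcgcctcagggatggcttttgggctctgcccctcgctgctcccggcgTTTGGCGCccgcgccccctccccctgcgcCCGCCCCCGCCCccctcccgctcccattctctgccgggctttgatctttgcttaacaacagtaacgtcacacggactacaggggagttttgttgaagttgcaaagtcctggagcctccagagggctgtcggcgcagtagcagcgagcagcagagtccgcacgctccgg
CDKN1B, chr12:12870052-12870351, plus strand: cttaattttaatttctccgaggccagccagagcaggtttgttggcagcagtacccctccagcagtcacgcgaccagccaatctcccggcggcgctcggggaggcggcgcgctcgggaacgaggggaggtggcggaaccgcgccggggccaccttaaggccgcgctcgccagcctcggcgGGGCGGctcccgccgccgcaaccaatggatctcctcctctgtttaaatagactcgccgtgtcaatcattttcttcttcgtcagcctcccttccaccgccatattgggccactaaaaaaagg
CDKN1A, chr6:36646241-36646540, plus strand: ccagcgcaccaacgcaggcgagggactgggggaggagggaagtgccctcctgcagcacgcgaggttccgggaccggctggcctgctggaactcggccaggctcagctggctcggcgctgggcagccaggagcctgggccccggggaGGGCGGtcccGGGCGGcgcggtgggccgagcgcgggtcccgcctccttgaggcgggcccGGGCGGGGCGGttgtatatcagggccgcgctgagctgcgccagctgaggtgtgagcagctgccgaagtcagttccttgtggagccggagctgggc

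Of the 9 main promoters read in this window, 8 held GGGCGG on either strand, a word found in 61.4% of 19881 protein-coding promoters, and CCND2 did not. An E2F word (TTTCGCGC, TTTGGCGC or TTTCCCGC) lay in 3.72% of all promoters and in that of CCND1 alone among the 9, at 147 bases before the start. Only exact matches were counted, so a near match such as TAACGTCA in the CCND1 window was not. None of the 9 windows held the cAMP response element TGACGTCA, the forkhead motif TGTTTAC or the AP-1 word TGANTCA, where N is any base. They also lacked the estrogen response element (ERE, GGTCA and TGACC with any 3 bases between them). In this order the words lay in 2.68%, 2.40%, 5.40% and 0.0503% of all promoters. Matches are descriptions of these windows only.

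Distal sequences are shown for some of the contacts described below, on the plus strand of GRCh37, with the named motif in capitals. The AP-1 word TGANTCA takes any base in the middle, where the AP-1 consensus has C or G. The CDKN1B and CDKN1A words have A and T there, so they match only the looser word. The first pair comes from the stretch chr11:68888141-68891604, which was linked to CCND1 in each of the 3 lists, and the others from the strongest distal anchors of CDKN1B and CDKN1A in LNCaP, at the AP-1 match nearest to the centre of each.
CCND1 distal stretch, forkhead, chr11:68890261-68890307: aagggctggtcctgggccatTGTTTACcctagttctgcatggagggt
CCND1 distal stretch, AP-1, chr11:68890350-68890396: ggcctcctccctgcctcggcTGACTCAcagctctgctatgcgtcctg
CDKN1B strongest anchor, AP-1, chr12:12737899-12737945: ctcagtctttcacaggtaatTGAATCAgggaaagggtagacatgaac
CDKN1A strongest anchor, AP-1, chr6:36601431-36601477: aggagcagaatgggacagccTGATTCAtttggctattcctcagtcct
Such words are common in anchors of this size. AP-1 matches lay in 89.3% and 60.9% of the LNCaP distal anchors of like width (within 20%) to those of CDKN1B and CDKN1A, and the forkhead motif lay in 51.5% of those like the CCND1 stretch in LNCaP. No linked distal anchor of the 9 genes held the ERE: 0 of 50 for Ishikawa, 0 of 28 for T-47D and 0 of 72 for LNCaP, against 0.548%, 0.709% and 0.257% of all distal anchors in those lists. AP-1 matches per 100 kb of the members' anchors were 32.8, 38.6 and 35.6 in the same order, near the 34.5, 34.3 and 35.7 of all distal anchors.

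The Ishikawa list held 1040329 read pairs, that of T-47D 351260 and that of LNCaP 1805322, with median anchor widths of 5.10, 2.61 and 3.23 kb. A loop enters a list with 3 read pairs, so a gene with none may still have contacts below that. Of 12 marker genes of the 3 lines, 10 ranked highest in the line they mark, and HOXA11 and TFAP2B had no loop in any list. Levels are given below as read pairs, as read pairs per 100000 of the list, and, between genes, per kb of promoter anchor. The 95% exact intervals cover counting error only.

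Most of the 9 genes were linked to at least 1 distal anchor, meaning an anchor over no protein-coding start site. In Ishikawa 7 of 9 were linked, against 52.5% of all protein-coding genes, in T-47D 5 of 9, against 34.7%, and in LNCaP 7 of 9, against 52.4%. The genes that led differed by line. CCND1 led in T-47D with 119.6 promoter read pairs per 100000, and CDKN1B led in LNCaP with 40.8 and in Ishikawa with 21.5. CCND2 and CDK6 were linked to distal anchors only in the Ishikawa list of these 3, while CDK4 and CCND3 were linked in T-47D and LNCaP and not in Ishikawa.

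Shares of list totals were then compared between lines for 2-fold differences. Among genes with at least 10 read pairs in either list, 3 of 7 members were higher in T-47D than in LNCaP (CCND1, CCNE2 and CDK4), against 35.1% of all genes tested, and CDKN1B was the 1 that was higher in LNCaP, against 25.4%. T-47D exceeded Ishikawa for 5 of 8 (CCND1, CCND3, CCNE2, CDK4 and CDKN1A), against 50.7%, and Ishikawa exceeded T-47D for 3 (CCND2, CDK6 and CDKN1B), against 27.7%. LNCaP exceeded Ishikawa for 5 of 9 (CCND3, CCNE1, CCNE2, CDK4 and CDKN1A), against 53.4%, and Ishikawa exceeded LNCaP for 2 (CCND2 and CDK6), against 30.3%. These counts lay near those of all genes. The median log2 ratio of the members was 0.21 for T-47D over LNCaP, 2.49 for T-47D over Ishikawa and 1.52 for LNCaP over Ishikawa, beside 0.29, 1.07 and 1.29 over all genes tested.

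**Figure D1:**
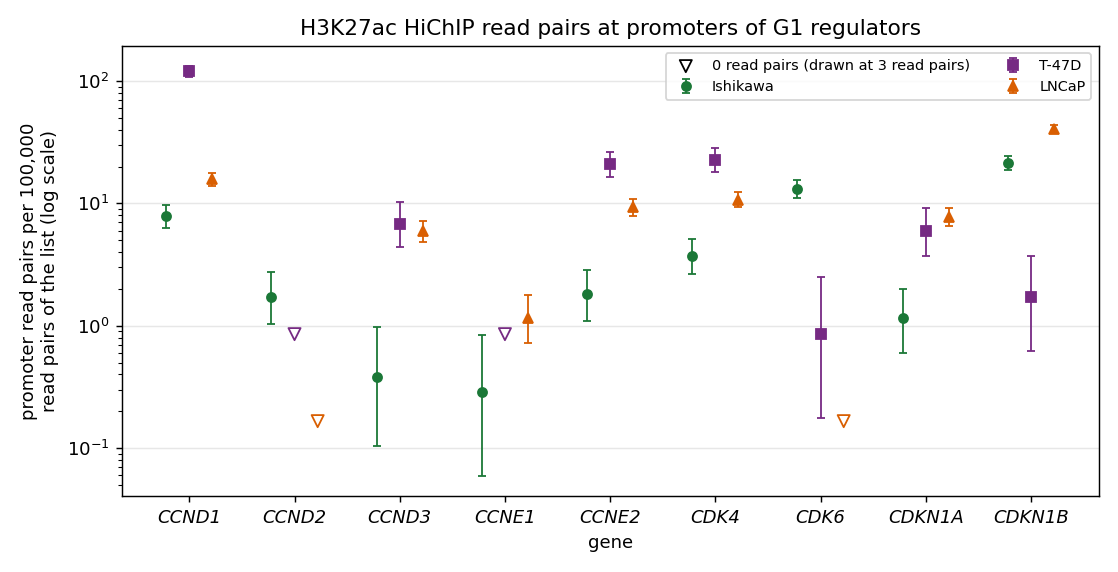
Promoter read pairs per 100,000 read pairs of the list (log axis) for the 9 genes in Ishikawa (circles), T-47D (squares) and LNCaP (triangles), with 95% exact Poisson intervals for counting error. Open triangles mark genes with 0 read pairs, drawn at 3 read pairs, and CCND1 in T-47D (119.6) is the highest point while CDKN1B in T-47D (1.71) lies below both other lists.

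CCND1, whose product cyclin D1 is the main D cyclin of many epithelial tumours, had 82 promoter read pairs for Ishikawa, 420 for T-47D and 284 for LNCaP, or 7.88, 119.6 and 15.7 per 100000. Per kb of promoter anchor the levels were 5.68, 42.5 and 26.7 read pairs. In T-47D 99.7% of protein-coding genes had fewer read pairs, against 92.4% in each of the other lists. The T-47D share was 7.60-fold that in LNCaP (6.52 to 8.87) and 15.2-fold that in Ishikawa (11.9 to 19.5), and the LNCaP share was 1.996-fold that in Ishikawa (1.56 to 2.58), just under the 2-fold limit. In all 3 lists the promoter anchor held the main start site and no start site of another gene.

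The neighbourhood of CCND1 was itself denser in T-47D. Within 1 Mb on each side of its start sites there were 63.3 loops per Mb in T-47D, where the list averaged 13.6, against 27.4 in LNCaP, where the average was 48.2, and 106.6 in Ishikawa, where it was 52.8. Set against the read pairs of that neighbourhood, CCND1 held 35.4% in T-47D and 35.9% in LNCaP, a log2 ratio of -0.02 for T-47D over LNCaP on this scale, and 5.01% in Ishikawa. Gene copy number in this interval was not tested.

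CCND1 was linked to 17 distal anchors in T-47D, more than for 99.9% of genes, to 9 in Ishikawa and to 8 in LNCaP. A far upstream region inside TPCN2, a gene for a lysosomal cation channel, was joined to CCND1 in every list. The T-47D list had 85 read pairs to an anchor 582.0 kb upstream (chr11:68872245-68875641, in introns) and 69 to one 565.3 kb upstream (chr11:68888141-68893057). LNCaP had 90 read pairs to chr11:68871803-68876383, which overlaps the first, and 12 to chr11:68888141-68891604, which starts at the same base as the second. Ishikawa had 15 read pairs to a wider anchor, chr11:68877618-68894616, present in 3 of the 4 parts of its list. Together the anchors touching TPCN2 took 168 of the 301 distal read pairs of CCND1 in T-47D (55.8%), 102 of 243 in LNCaP (42.0%) and 15 of 57 in Ishikawa (26.3%). The forkhead and AP-1 words printed above lie in the 3.46 kb that the 3 lists share there.

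Nearer the gene the lists differed. In T-47D 8 anchors lay 124.1 to 220.6 kb upstream and took 104 read pairs, 34.6% of the distal total, with 21 at an intergenic anchor 124.1 kb upstream (chr11:69330983-69332689) and 21 at 203.5 kb, over an exon of the noncoding gene LINC02952. LNCaP had no linked anchor in that stretch, and Ishikawa had 2 there (200.8 and 215.6 kb), with 6 read pairs in all. The LNCaP list instead had its strongest contact 12.8 kb downstream (chr11:69465912-69471486, over exons of CCND1 and of LTO1), with 101 read pairs, and neither of the others had a linked distal anchor at that place. All 9 distal anchors in Ishikawa lay upstream, 3 of them within 50 kb, of which the strongest had 8 read pairs at 11.2 kb. A second far upstream region was linked in all 3 lists, with 13 read pairs in Ishikawa (409.5 kb), 24 in LNCaP (411.7 kb) and 9 in T-47D (404.2 kb). The Ishikawa anchor overlapped both others, which did not overlap each other.

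**Figure D2:**
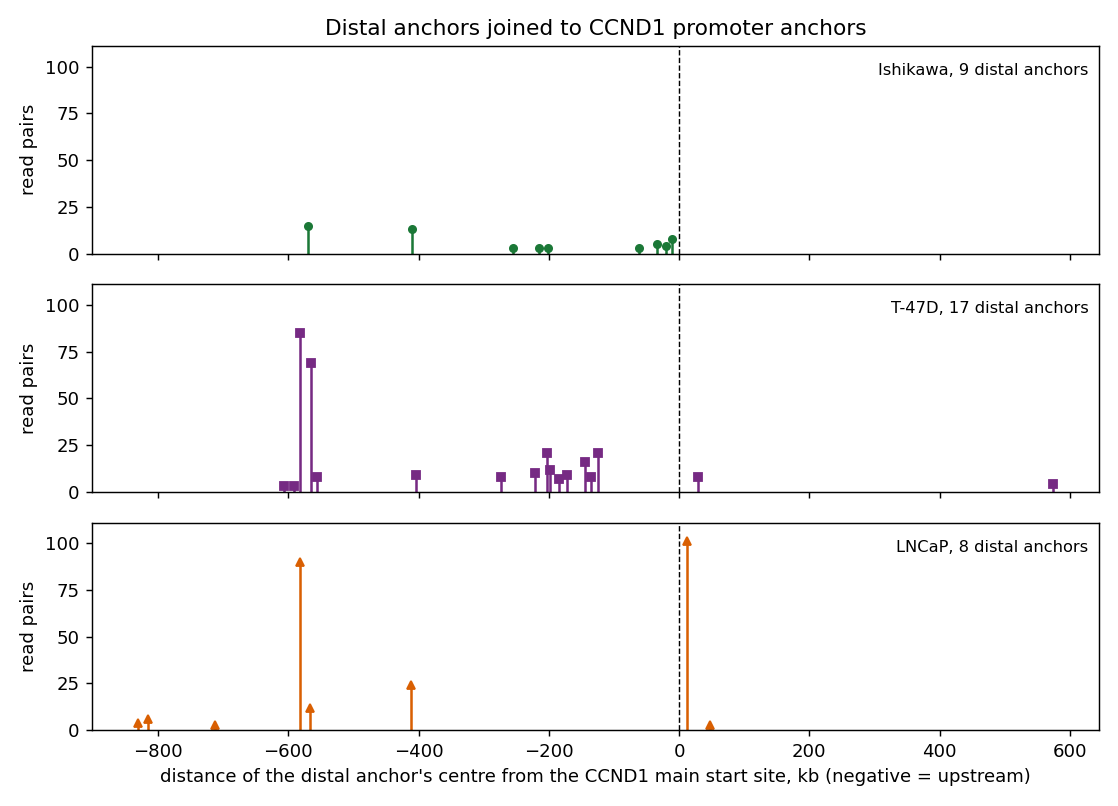
Read pairs joining CCND1 promoter anchors to each distal anchor (y axis) against the distance of that anchor's centre from the main start site in kb (x axis, negative upstream), 1 panel per list. The tallest stems in T-47D (85 and 69) and a tall stem in LNCaP (90) stand 565.3 to 582.0 kb upstream, a cluster 124.1 to 220.6 kb upstream appears in T-47D, and the tallest LNCaP stem (101) stands 12.8 kb downstream.

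Promoters of neighbours were joined to that of CCND1 as well. LTO1, which lies just downstream and serves ribosome biogenesis, had 86 read pairs with it in T-47D, 17 in LNCaP and 6 in Ishikawa. MYEOV had 24 in T-47D and 10 in Ishikawa, and CPT1A, the mitochondrial carnitine palmitoyltransferase, had 19 in LNCaP and 4 in T-47D. Next came TPCN2 with 5 in T-47D, IGHMBP2 with 5 in LNCaP and the unnamed gene ENSG00000287725, which overlaps TPCN2, with 9 in Ishikawa. LTO1 was also the gene whose distal anchors were most like those of CCND1 in T-47D, with 10 anchors in common (Jaccard index 0.59 over 17 and 10 anchors) from a separate promoter anchor. In LNCaP 3 anchors were in common with LTO1 and 3 with TPCN2 (0.38 each), and in Ishikawa all 9 were also linked to ENSG00000287725 (0.41).

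CCND2, a D cyclin more used in blood, brain and gonadal cells, was linked in Ishikawa alone of the 3 lists, by 18 read pairs against 0 and 0. Its Ishikawa anchor, chr12:4373071-4379853, covered an alternative start and did not reach the window at the main start site at 4382928, so CCND2 had 0 distal anchors when counted from that start alone. The 4 distal anchors all lay upstream, with 6 read pairs 252.5 kb away, 5 and 4 over exons of the antisense RNA gene CCND2-AS1 at 20.8 and 26.996 kb, and 3 at 85.8 kb. The Ishikawa share was at least 10.4-fold that in LNCaP and at least 2.03-fold that in T-47D, taking 3 read pairs in the list without any. The neighbourhood was dense in Ishikawa (173.2 loops per Mb) and nearly empty in T-47D (0.996), with 22.9 in LNCaP.

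CCND3, the D cyclin of many blood and muscle lineages, had 4 read pairs for Ishikawa, 24 for T-47D and 107 for LNCaP. The shares were 0.384, 6.83 and 5.93 per 100000, and T-47D and LNCaP did not differ beyond counting error (ratio 1.15, 0.708 to 1.81). The single Ishikawa loop, to C6orf132, left from a far alternative start that shares its anchor with TAF8, not from the main start. LNCaP used both places, with 67 read pairs at the main start and 47 at the far start, 7 of which joined these anchors to each other. Linked distal anchors numbered 9 in LNCaP and 2 in T-47D, and the 1 in common lay inside CCND3, 104.1 kb (T-47D) and 103.9 kb (LNCaP) upstream of the main start, with 5 and 9 read pairs. The other strong LNCaP contacts were 9 read pairs at the exon 5.68 kb downstream and 8 in an intron of USP49 116.4 kb downstream, and T-47D had 3 at TRERF1, 286.5 kb upstream. In LNCaP 6 of the 9 were also linked to BYSL and MED20, which share an anchor (Jaccard index 0.67), and 17 read pairs joined that anchor to CCND3, against 10 in T-47D. It also holds a start of the unnamed gene ENSG00000288721.

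CCNE1, the cyclin that activates CDK2, had 3 read pairs for Ishikawa, 0 for T-47D and 21 for LNCaP. The Ishikawa loop came from chr19:30310430-30316112, away from the main start site, and carried the smallest count a list can hold, to an anchor 72.2 kb downstream. In LNCaP the main start was covered, and 3 distal anchors were linked, 5.73 kb upstream with 8 read pairs and 33.6 kb downstream and 134.6 kb upstream with 4 each. All 3 were also linked to C19orf12 (Jaccard index 0.50 over 3 and 6 anchors), whose promoter had 5 read pairs with that of CCNE1. The LNCaP share was 4.03-fold that in Ishikawa (1.20 to 21.1).

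CCNE2, the second E cyclin, had 19, 73 and 168 read pairs in Ishikawa, T-47D and LNCaP, or 1.83, 20.8 and 9.31 per 100000. The anchor was shared with a start site of NDUFAF6, a complex I assembly factor, in every list, so the read pairs of these genes cannot be separated. The T-47D share was 2.23-fold that in LNCaP (1.67 to 2.96) and 11.4-fold that in Ishikawa (6.80 to 19.97). The strongest distal anchor in LNCaP lay 95.02 kb upstream over an exon of NDUFAF6, with 34 read pairs, and in T-47D 10.4 kb upstream in an intron of that gene, with 12. Others had 7 read pairs at 71.3 kb in LNCaP and 7 each at 172.7 and 217.2 kb in T-47D, all upstream, while the 3 Ishikawa anchors had 5, 4 and 3 read pairs at 95.7 kb downstream, 328.6 kb upstream and 62.1 kb downstream. One place, 39.2 kb (LNCaP) or 41.3 kb (T-47D) upstream, was linked in both, with 5 read pairs in LNCaP and 4 in T-47D. TP53INP1, a p53-induced gene, was joined promoter to promoter with 49 read pairs in LNCaP and 13 in T-47D, and INTS8 with 12, 10 and, in Ishikawa, 7. Loops to other anchors holding NDUFAF6 starts had 98 in LNCaP and 17 in T-47D. NDUFAF6 also had the most similar distal anchors in T-47D (5 in common, Jaccard index 0.62) and Ishikawa (3, 0.43), and CFAP418 in LNCaP (2, 0.33).

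CDK4, the kinase partner of cyclin D, was mostly joined to other promoters. It had 39 read pairs for Ishikawa, 80 for T-47D and 194 for LNCaP, and distal anchors took none of these in Ishikawa, 15.0% in T-47D (3 anchors, 4 read pairs each) and 7.22% in LNCaP (4 anchors, 3 to 5 read pairs each). The T-47D anchors lay 25.9 kb downstream over exons of OS9 and AGAP2 and 136.4 and 155.3 kb upstream, and the LNCaP anchor with 5 lay 474.0 kb downstream over an exon of R3HDM2, with 3 each at 94.97 kb downstream and 87.1 and 183.8 kb upstream. For comparison, distal anchors took 69.5 to 85.6% of the read pairs of CCND1. The leading partners were EEF1AKMT3 and METTL1, whose shared anchor had 56 read pairs with CDK4 in LNCaP, 22 in T-47D and 8 in Ishikawa, and TSPAN31, with 42, 15 and 16. AGAP2 led in Ishikawa with 25. The METTL1 anchor also holds a start of the unnamed gene ENSG00000257921. In LNCaP the CDK4 anchor held a start of MARCHF9, which therefore had the same 4 distal anchors, and in T-47D CTDSP2 and EEF1AKMT3 each had 2 of the 3 (Jaccard index 0.40). The T-47D share was 2.12-fold that in LNCaP (1.61 to 2.76), and the LNCaP share was 2.87-fold that in Ishikawa (2.02 to 4.15). The T-47D anchor does not reach the 5′ end of the gene record. Counted from that end alone, the first came to a log2 ratio of at most -3.65, a bound with 3 read pairs set for T-47D. The second came to a log2 ratio of 0.05 with a promoter window of 2 kb. CDK4 ranked 39th by read pairs among itself and the 45 other genes within 1 Mb in Ishikawa, where that region held 281.6 loops per Mb, and 10th in T-47D and 8th in LNCaP.

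CDK6, the other cyclin D kinase, showed the reverse. It had 136 read pairs for Ishikawa, 3 for T-47D and 0 for LNCaP, and 14 distal anchors in Ishikawa against 0 and 0. In Ishikawa 96.4% of genes had fewer read pairs and 98.3% fewer distal anchors, and CDK6 ranked first among itself and the 20 other genes within 1 Mb, in a region of 39.7 loops per Mb, below the list average of 52.8. The Ishikawa share was 15.3-fold that in T-47D (5.13 to 75.1) and at least 78.7-fold that in LNCaP. The LNCaP neighbourhood was not empty, with 33.8 loops per Mb.

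The Ishikawa anchors of CDK6, chr7:92345278-92362323 and chr7:92452857-92463841, covered alternative starts, and neither reached the window at the main start site at 92465887. With 92 and 51 read pairs, they were joined to each other by 7. Counted from the canonical start alone, or from the 5′ end of the gene record alone, CDK6 had 0 distal anchors in Ishikawa, and 7 remained with loops found in 2 or more parts of the list. The contacts stayed largely inside the gene: 10 of 14 distal anchors touched CDK6 and took 102 of 123 distal read pairs (82.9%). Distances here run from the main start site, not from the promoter anchor that each loop used, so they are not loop lengths. The strongest distal anchors, all intronic, lay 93.7 kb into the gene with 22 read pairs, 83.05 kb with 17 and 195.2 kb with 13. The first 2 of these were found in 3 of the 4 parts of the list and the third in 2. Upstream, 3 intergenic anchors took 16 read pairs. Promoter partners were weak, FAM133B and GATAD1 with 3 read pairs in Ishikawa and FAM133B with 3 in T-47D.

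**Figure D3:**
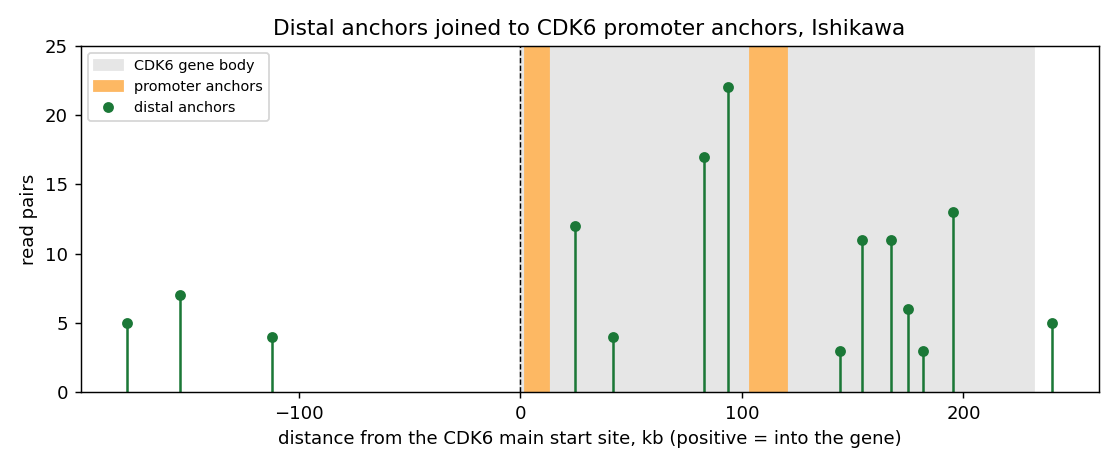
Read pairs joining CDK6 promoter anchors to each of 14 distal anchors in Ishikawa (y axis) against distance from the main start site in kb (x axis, positive into the gene), with the gene body shaded grey and the 2 promoter anchors shaded orange. The tallest stems (22 and 17) stand beside the inner promoter anchor, and 3 stems stand upstream of the gene.

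CDKN1A, the gene of p21, had 12 read pairs for Ishikawa, 21 for T-47D and 140 for LNCaP, or 1.15, 5.98 and 7.75 per 100000. The T-47D and LNCaP shares did not differ beyond counting error (LNCaP over T-47D 1.30, 0.816 to 2.16), and the LNCaP share was 6.72-fold that in Ishikawa (3.73 to 13.3). LNCaP linked 8 distal anchors, led by 22 read pairs at chr6:36600848-36603599, 44.3 kb upstream and intergenic, 18 at 36.2 kb upstream and 10 at 165.0 kb upstream over an exon of STK38. Ishikawa linked 3, with 6 read pairs 8.53 kb into the gene and 3 each at 14.9 kb downstream and 55.4 kb upstream, and none of these overlapped an anchor of LNCaP. T-47D linked none: 13 of its 21 read pairs joined both CDKN1A anchors to each other and 8 joined SRSF3, a splicing factor gene. SRSF3 was also the leading partner in LNCaP, with 25 read pairs, before KCTD20 and PXT1, which had 21 each and shared 5 of the 8 LNCaP distal anchors (Jaccard index 0.50). CPNE5 shared 2 of the 3 in Ishikawa (0.33). An exact p53 response element, searched with no spacer or mismatch, was found 0 times in the promoter anchors of CDKN1A in any list. Elements with a spacer or a mismatch are missed by this search, so it cannot show that a p53 element is absent.

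CDKN1B, the gene of p27, had 224 read pairs for Ishikawa, 6 for T-47D and 736 for LNCaP, or 21.5, 1.71 and 40.8 per 100000. The LNCaP share was 23.9-fold that in T-47D (10.9 to 65.2) and the Ishikawa share 12.6-fold (5.70 to 34.7), while LNCaP exceeded Ishikawa by 1.89-fold (1.63 to 2.21). In T-47D the main start site lay in no anchor: its only anchor was at an upstream start shared with GPR19, an orphan receptor gene. In Ishikawa and LNCaP the main anchor also held a start of APOLD1, and it took 214 and 664 of the read pairs, so the read pairs of these genes cannot be separated. The lists differed in their surroundings too, with 304.6 loops per Mb within 1 Mb for Ishikawa, 9.84 for T-47D and 124.0 for LNCaP. Set against the read pairs of that neighbourhood, the CDKN1B read pairs came to 31.7% in LNCaP, 6.06% in T-47D and 4.42% in Ishikawa. The LNCaP count includes loops reaching beyond 1 Mb, which the neighbourhood leaves out. On this scale T-47D over Ishikawa had a log2 ratio of 0.45, but the 6 read pairs of T-47D (2.20 to 13.1) are too few to give its direction.

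CDKN1B had 36 distal anchors in LNCaP, 16 in Ishikawa and 1 in T-47D. Counted from the canonical start alone there were 40, 15 and 0, and from the 5′ end of the gene record alone there were 0 in each list. Loops between the 2 promoter anchors of CDKN1B are not in these counts and had 47 read pairs in LNCaP and 13 in Ishikawa. In LNCaP no distal anchor lay within 50 kb of the main start. The strongest were at 129.6 kb upstream with 50 read pairs (chr12:12737191-12744190, intergenic), 312.3 kb with 42 and 284.5 kb with 41. The last 2 touch BORCS5, a lysosome positioning gene, and 10 anchors touching that gene took 148 of 443 distal read pairs (33.4%). In Ishikawa 6 anchors within 50 kb took 120 of 173 (69.4%), led by 37 read pairs 8.39 kb upstream and 24 at 15.4 kb downstream, each found in all 4 parts of the list, and 23 at 14.05 kb upstream, found in 3. Of the 16 Ishikawa anchors 3 overlapped a LNCaP anchor, with 9 read pairs in Ishikawa at 282.1 kb upstream, 4 at 133.8 kb and 3 at 126.1 kb. The single T-47D anchor, 13.2 kb upstream with 3 read pairs, overlapped an Ishikawa anchor with 23.

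**Figure D4:**
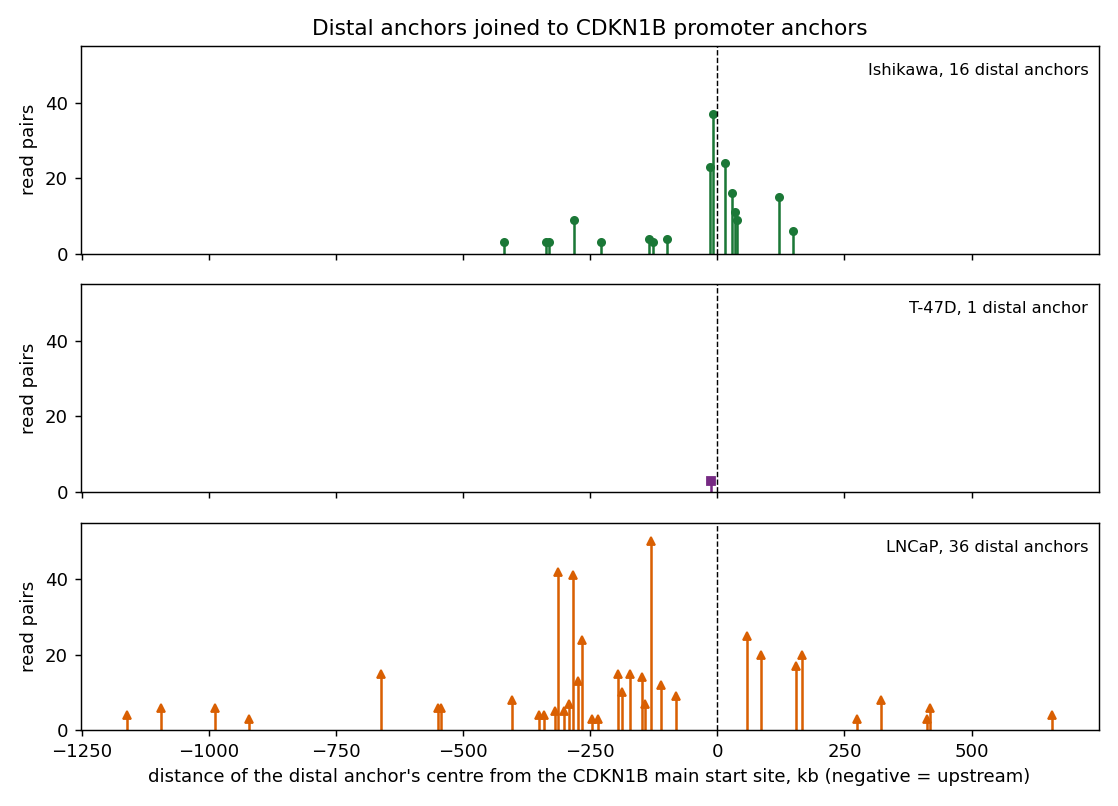
Read pairs joining CDKN1B promoter anchors to each distal anchor (y axis) against the distance of that anchor's centre from the main start site in kb (x axis, negative upstream), 1 panel per list. Ishikawa distal anchors crowd within 50 kb (6 of 16 anchors, up to 37 read pairs), LNCaP distal anchors spread from 1161 kb upstream to 658.7 kb downstream with none within 50 kb, and T-47D has 1. Anchors over a protein-coding start site are not drawn.

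DUSP16, a phosphatase of stress kinases, was the gene with a separate promoter anchor whose distal anchors were most like those of CDKN1B in LNCaP (16 in common, Jaccard index 0.43), with 51 read pairs between their promoters. APOLD1, on the same anchor, had the same 36. In Ishikawa APOLD1 had 14 in common (0.78) and BORCS5 7 (0.30). Loops joining CDKN1B anchors to anchors with starts of APOLD1 had 75 read pairs in LNCaP and 16 in Ishikawa. Of these, 47 and 13 joined the 2 promoter anchors of CDKN1B to each other. The same 47 and 13 are all the read pairs counted for GPR19, whose start lies in the upstream anchor. BORCS5 and GPRC5A had 11 each in Ishikawa. T-47D had 3, to MANSC1.

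Set against the read pairs of their neighbourhoods, CCND1 in T-47D and LNCaP, CDKN1B in LNCaP (31.7%) and CDK6 in Ishikawa (24.6%) were the highest of the 27 values. CDK4 in T-47D came next with 11.3%. By read pairs per kb of promoter anchor, the order in LNCaP was CDKN1B (39.4), CCNE2 (35.3), CDK4 (28.5) and CCND1 (26.7), in T-47D CCND1 (42.5), CDK4 (24.9) and CCNE2 (17.3), and in Ishikawa CDKN1B (13.3), CDK4 (9.45) and CCND1 (5.68). Anchors are wider in Ishikawa, so these levels compare genes within a list.

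**Figure D5:**
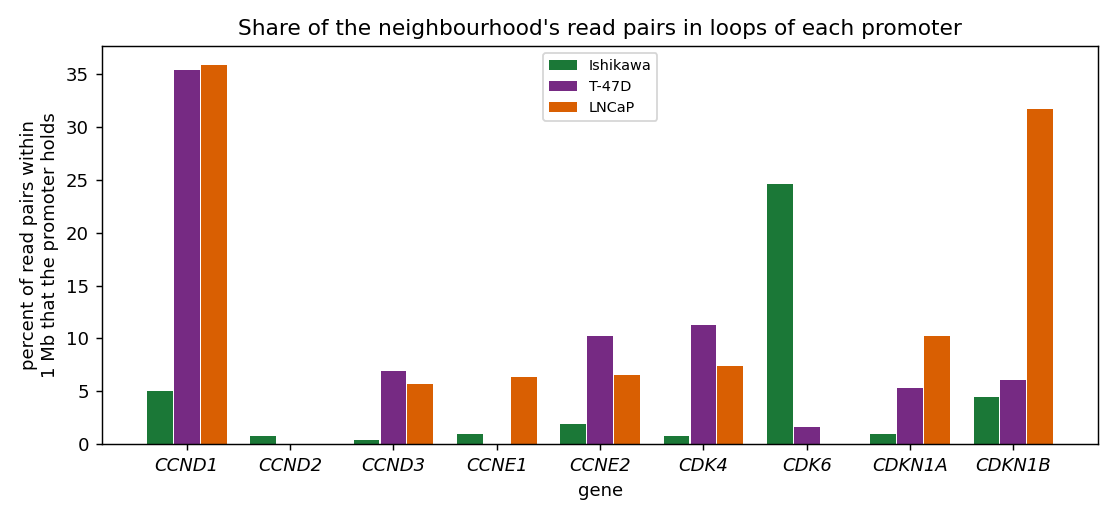
Promoter read pairs of a gene as a percent of the read pairs of loops lying within 1 Mb on each side of its start sites (y axis), for the 9 genes (x axis) in Ishikawa, T-47D and LNCaP, with no bar where a list has no loop of the gene. Promoter loops reaching beyond 1 Mb, as for CDKN1B in LNCaP, are in the first count only. CCND1 holds about the same share in T-47D (35.4%) and LNCaP (35.9%), CDK6 stands out in Ishikawa (24.6%) and CDKN1B in LNCaP (31.7%).

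Few distal contacts were in the same place in different lines. Over the genes linked in both lists, 4 of 28 T-47D anchors (14.3%) overlapped a LNCaP anchor of the same gene by 1 bp or more, and 4 of 61 LNCaP anchors (6.56%) the reverse, beside 34.5% and 13.3% for all protein-coding genes. Between T-47D and Ishikawa the counts were 5 of 23 (21.7%) and 4 of 28 (14.3%), beside 12.8% and 8.11%. Between LNCaP and Ishikawa they were 5 of 59 (8.47%) and 5 of 32 (15.6%), beside 9.83% and 15.0%. CCND1 gave 4 of the 5 T-47D anchors found in Ishikawa.

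Among 34 other genes of the G1 to S step, from CDK2 and the E2F factors to replication licensing, 23 were linked to a distal anchor for Ishikawa, 22 for T-47D and 31 for LNCaP, beside 52.5%, 34.7% and 52.4% of all genes. The promoter read pairs were highest for CDK2 (295), TFDP1 (239) and CDK7 (49) in Ishikawa, for CKS1B (178), CDK2 (175) and CDT1 (111) in T-47D, and for MYC (2183), CKS1B (955) and RBL2 (636) in LNCaP. Past 2-fold, 14 were higher in T-47D than LNCaP and 6 lower of 30 tested, beside 35.1% and 25.4% of all genes tested. Against Ishikawa, 22 were higher and 3 lower in T-47D, beside 50.7% and 27.7%, and 19 higher and 3 lower in LNCaP, beside 53.4% and 30.3%, of 29 tested each.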

How the data were processed

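H3K27ac HiChIP was measured in 7 samples of 3 cell lines. The authors aligned reads to hg19 with HiC-Pro, called loops with hichipper and removed loops with fewer than 3 reads or a high false discovery rate. The deposited values are counts of read pairs per loop, in 1 pooled list per line. In the Ishikawa list, 4 separately sorted parts follow each other and were summed. Rows joining an anchor to itself and rows between chromosomes were left out. Start sites came from GENCODE 44 lifted to GRCh37, and the main start is that of the canonical transcript. Neighbourhoods hold loops with both anchor centres within 1 Mb of the start sites. The promoter read pairs set against them also count loops that reach further. Ratios compared shares of list totals, with 3 read pairs in place of 0 and exact 95% intervals for counting error. The members and gene lists were chosen with earlier results of these data known. Named items were all members and, per list, their 3 strongest distal anchors and promoter partners and the gene with the highest Jaccard index of distal anchors. Alternatives changed the minimum, promoter window, start sites (1 per gene, the 5′ end of its record or the canonical start), spans, scaling, fold and overlap. Loop assignment was tested on simulated data. Python 3.11.15, pandas 2.3.3, numpy 2.4.6, scipy 1.17.1, pysam 0.24.0, samtools 1.23.1 and matplotlib 3.10.9 were used.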

Additional observations from a re-analysis of the deposited data

Results flagged for a closer look

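Rows that join an anchor to itself were outside the comparisons, and the LNCaP list holds none. Above the 3 read pairs that a count of 0 allows, such self-contact at promoter anchors was 176 read pairs for CCND1, 35 for CDK4, 21 for CDKN1A, 15 for CCNE2, 9 for CCND3 and 8 for CDKN1B in T-47D. In Ishikawa it was 61 for CDK6, 54 for CDKN1B, 10 for CCND1 and 10 for CCNE2. What these short-range pairs reflect was not tested.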

How the results depend on the processing

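No paired analysis was possible because each list pools its samples, and leaving out a replicate was not possible for the same reason. Of 100 alternative values for the counts of members, 70 stayed within 1.5 times the reported count and 30 did not. Of 19 member differences past 2-fold, all 19 kept direction with a minimum of 5 read pairs (16 stayed past 2-fold) or a 2 kb promoter window (18). The same held for Ishikawa loops of 2 or more parts (18), spans of 20 kb to 1 Mb (16), promoter loop scaling (16) and median ratio scaling (15). With a minimum of 10 or equal numbers of loops, 16 had a value, all kept direction and 14 stayed past 2-fold. Scaling by read pairs within 1 Mb gave 17 a value, of which 15 kept direction and 13 stayed past 2-fold. With 1 start site per gene 13 had a value, and 12 kept direction and stayed past 2-fold. The setting of 1 start site per gene took the 5′ end of the gene record, which for CDKN1B and CDK6 lies outside every linked anchor. For CDK4 that end lies outside the T-47D and Ishikawa anchors and inside the LNCaP anchor. Using the canonical start site only, an alternative chosen after seeing the data, 15 of the 19 had a value and all 15 stayed past 2-fold in the same direction, while members higher in Ishikawa came to 1 against T-47D and 0 against LNCaP.
Members linked to a distal anchor fell to 3 in T-47D with a minimum of 5 read pairs, to 3 (Ishikawa), 2 (T-47D) and 4 (LNCaP) with a minimum of 10, to 3 in Ishikawa and 4 in LNCaP with equal numbers of loops, and to 4 in Ishikawa and 3 in T-47D with 1 start site per gene. Members higher in Ishikawa than LNCaP came to 1 with a minimum of 10, equal numbers of loops, 1 start site, Ishikawa loops of 2 or more parts or scaling by read pairs within 1 Mb. Those higher in T-47D than LNCaP came to 1 with promoter loop scaling, median ratio scaling or a fold of 4 and to 0 with scaling within 1 Mb. Those higher in LNCaP than T-47D came to 2 with 1 start site or the limited spans, those higher in LNCaP than Ishikawa to 3 with equal numbers of loops or median ratio scaling, those higher in T-47D than Ishikawa to 3 with 1 start site, and those higher in Ishikawa than T-47D to 1 with 1 start site or scaling within 1 Mb. With an overlap of 50% of both anchors, no anchor was shared between Ishikawa and either other list (0 in each direction), beside 2.62% and 1.71% of the anchors of all genes between T-47D and Ishikawa and 2.99% and 4.82% between LNCaP and Ishikawa. T-47D and LNCaP kept 3 of 28 and 3 of 61, beside 23.04% and 9.01%.
With 1 start site per gene, CDK4 in T-47D over LNCaP reversed, to a log2 ratio of at most -3.65. Its T-47D anchor does not reach that site, so 3 read pairs stand in for 0. With scaling within 1 Mb, CCND1 in T-47D over LNCaP came to -0.02, no longer a difference. CDKN1B in T-47D over Ishikawa came to 0.45 on that scale, from 6 read pairs in T-47D, too few to give its direction. The cause of the other changes was not tested.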
